A study of Drosophila melanogaster with 6 samples.

Results

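Proteasome subunit genes encode the parts of the particle that degrades most ubiquitin-tagged proteins in the cell. They were followed here in the heads of flies with glial transgenes that cause bang-sensitive seizures, which are seizures set off by a mechanical shock. A gene was a member if 1 array row carried its symbol alone and the current symbol began with Rpn or Rpt and a digit, or with Prosalpha or Prosbeta. The rule found 40 of the 13402 genes that had such a row, each of the 40 with a single row. Of the members 26 encode standard subunits and 14 encode paralogs, whose symbols carry a T or R suffix. The annotation table of the fly's RefSeq assembly holds 48 genes that match the rule, and the other 8 (Prosalpha1, Prosalpha1R, Prosbeta1, Rpn9, Rpn10, Rpt1, Rpt6 and Rpt6R) were not analysed here. A further 2 rows carried a pair of proteasome symbols each and were left out.

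Every fly carried the pan-glial driver repo-GAL4. The 3 control arrays came from flies that combined it with an empty TRiP RNA interference vector. The 3 pool arrays came from 7 lines with that driver, whose RNA was mixed in equal amounts. In 5 of these lines RNA interference was directed at SesB, COX7A, comt, nrv2 or ATPalpha, and the other 2 lines overexpressed Dube3a or the huntingtin transgene htt.12Q.FL. Adults aged approximately 3 to 5 days and kept at 25 °C were used, with 15 to 25 heads for each genotype, and no sex is stated. Whole heads were taken although the labels name the tissue brain, and the RNA was hybridised to GeneChip Drosophila Gene 1.0 ST arrays. A pool value is an average over 7 lines, so it does not show which line moved, and opposite changes in single lines would cancel. The labels do not state whether arrays of 1 group stem from separate flies or RNA mixtures, so the p-values measure the spread between arrays, which may be technical.

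The proteasome has a barrel-shaped core, the 20S particle, and caps, the 19S particles, at its ends. The outer alpha rings of the core gate the entry, and the inner beta rings hold the protein-cutting sites of Prosbeta1, Prosbeta2 and Prosbeta5. In the cap a base with a ring of Rpt ATPases unfolds the substrate, while a lid of Rpn subunits carries Rpn11, the enzyme that takes off the ubiquitin chain. When proteasome activity is blocked in fly cells, the transcription factor Cnc raises the subunit genes as a group. Whether their transcripts follow proteasome demand in these heads was not tested. Ube3a, the enzyme labelled Dube3a, is a ubiquitin ligase of the HECT type and in flies has been linked to the proteasomal receptor Rpn10. The comparison of pool with control therefore asked whether the subunit genes shifted in a mixture that holds 1 line with more of this ligase.

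No proteasome gene passed the test. Of 40 members 0 were higher and 0 lower in the pool at a limma adjusted p under 0.05, a threshold that 473 of all 16322 rows (2.90%) passed, 1.65% upward and 1.24% downward. At an unadjusted p under 0.05 there were 3 members, against 14.8% of all rows, and at an adjusted p under 0.10 there was 1, against 4.81%. The median log2 difference, pool minus control, was 0.0044 over the members and -0.0005 over all rows. The members ranged from -0.25 for Prosbeta2R1 to 0.17 for Prosbeta4, a span from 0.838-fold to 1.13-fold. Their median size of difference regardless of sign was 0.0477, against 0.0686 over all rows.

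A missed threshold does not show that a level was the same, so the 95% interval of each difference was read as well. For all 26 standard subunits it lay inside a change of 1.25-fold in either direction (0.32 on the log2 scale), which held for 76.5% of all rows. The most extreme limits among the 26 were -0.30, for Prosalpha3, and 0.31, for Prosbeta2. For all 40 members it lay inside 1.5-fold. These intervals are set for 1 gene at a time. The 1.25-fold and 1.5-fold bounds were not stated in the plan of the tests, and the most extreme limits lay close to the narrower bound. With arrays centred on their median, and with the replicate number as a block, 25 of the 26 stayed inside 1.25-fold. With 1 array left out the intervals are wider, and 21 to 24 of the 26 stayed inside.

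**Figure D1:**
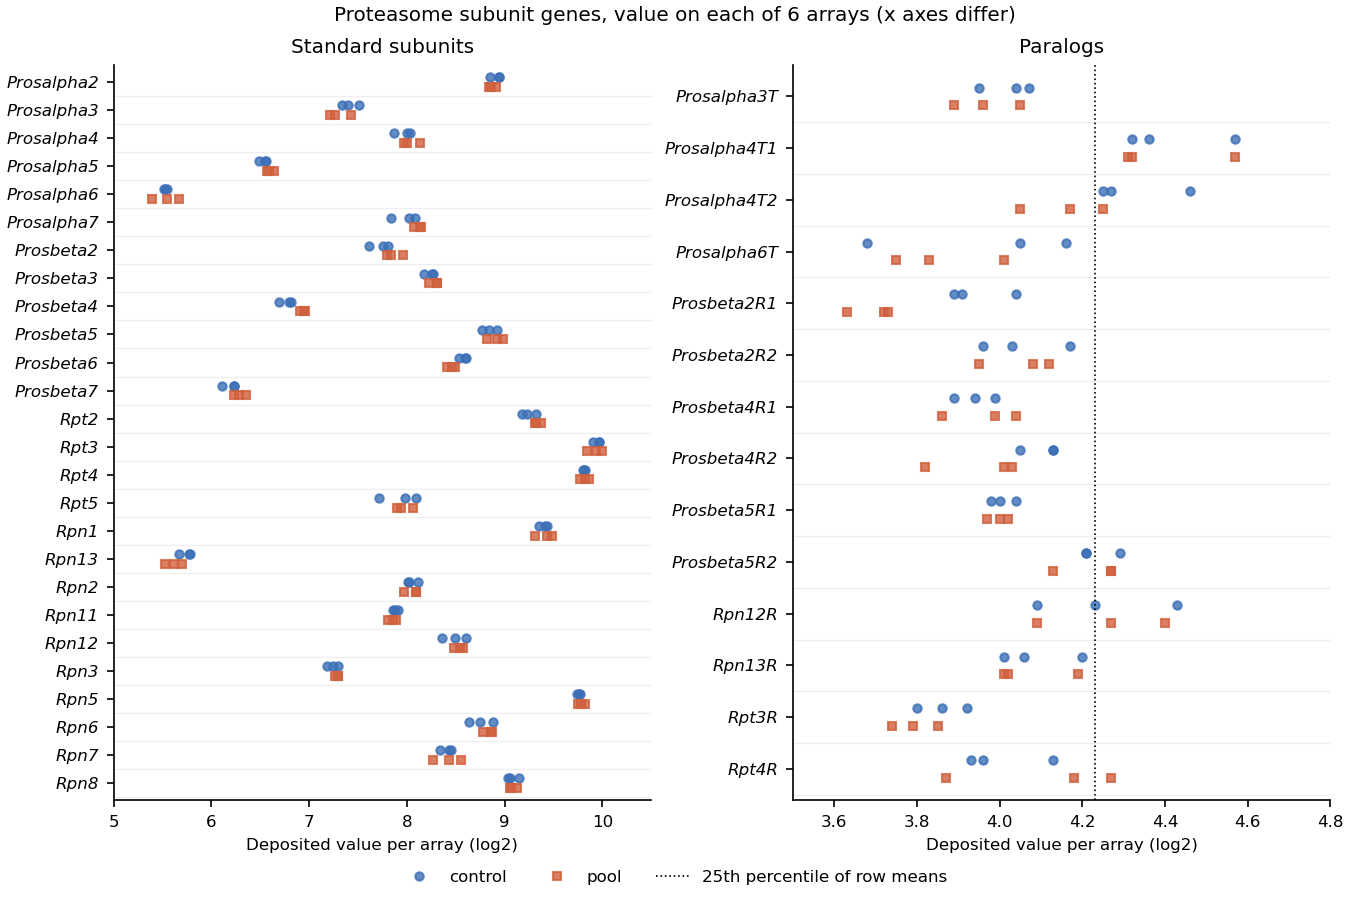
Deposited log2 value (horizontal axis) of each proteasome member on the 3 control arrays (circles) and 3 pool arrays (squares), standard subunits on the left and paralogs on the right, with different horizontal ranges. Control and pool points overlap or nearly touch for most genes, and 11 of the 14 paralogs have a mean below the dotted line, the 25th percentile of row means at 4.23.

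The same arrays did register the ligase. Ube3a read between 8.20 and 8.33 on the control arrays and between 9.23 and 9.30 on the pool arrays, a log2 difference of 0.97 with a standard error of 0.058 (adjusted p = 0.00015). It was the 1 gene called among 69 measured genes of 7 lists that work with or beside the proteasome, while 2.90% of all rows were called. Its direction is the one the labels give. The difference is an average over the 7 lines, of which 1 overexpresses it. The RNA interference target nrv2, a glial marker outside these lists, was not called, at -0.07 (limma adjusted p = 0.592). Its pool arrays nevertheless lay below its control arrays. The targets SesB, COX7A, comt and ATPalpha are not reported here. The call of Ube3a therefore does not show that a change made in 1 line would be called for other genes.

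The alpha ring, which forms the gate of the core, had 6 measured members, 4 with a higher and 2 with a lower pool mean (median difference 0.04). Prosalpha7 read 8.08, 8.02 and 7.84 on the control arrays and 8.13, 8.14 and 8.07 on the pool arrays. The lowest pool array lay just under the highest control array, and the log2 difference of 0.13 had an interval from -0.03 to 0.30 (adjusted p = 0.446). Prosalpha5 read 6.55, 6.56 and 6.49 against 6.64, 6.59 and 6.57. All its pool arrays were above all its control arrays, at a mean log2 difference of 0.07 (adjusted p = 0.615). Prosalpha3 went the other way, with control arrays at 7.51, 7.34 and 7.40 and pool arrays at 7.43, 7.26 and 7.21. Its groups overlapped, at a difference of -0.12 (adjusted p = 0.553). The remaining alpha genes stood between -0.04 (Prosalpha2) and 0.07 (Prosalpha4), with Prosalpha6 at 0.004.

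The beta ring held the largest differences among the standard subunits, with 5 of its 6 measured genes higher in mean and a median difference of 0.08. Prosbeta4, a structural ring member, read 6.69, 6.81 and 6.79 on the control arrays and 6.96, 6.95 and 6.91 on the pool arrays. Its groups did not overlap, and the difference of 0.17 had an interval from 0.05 to 0.30, yet the gene did not pass over all rows (unadjusted p = 0.013, adjusted p = 0.172). Prosbeta2, which carries the trypsin-like site and whose dominant fly mutant is temperature-sensitive, read 7.76, 7.81 and 7.61 against 7.84, 7.96 and 7.80. One pool array lay within the control range, and the difference was 0.14 (adjusted p = 0.410). Prosbeta5, which carries the chymotrypsin-like site, read 8.84, 8.92 and 8.77 against 8.98, 8.92 and 8.82. Those groups overlapped broadly, with a difference of 0.06 (adjusted p = 0.723).

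Prosbeta6 was the beta gene with a lower pool mean. It is the subunit altered in the other classical temperature-sensitive proteasome mutant of the fly. Its control arrays read 8.53, 8.59 and 8.60 and its pool arrays 8.49, 8.41 and 8.46. The groups were separate, at a difference of -0.12 with an interval from -0.24 to -0.002, and the gene did not pass (unadjusted p = 0.0469, adjusted p = 0.329). Prosbeta7 also had separate groups, at 0.10 (adjusted p = 0.509), and Prosbeta3 stood at 0.04.

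The base of the cap showed smaller differences. Its 4 measured ATPases had a median difference of 0.02, and in each the control and pool arrays overlapped. Rpt2, the ATPase whose tail helps to open the gate of the core, read 9.32, 9.23 and 9.18 on the control arrays and 9.32, 9.37 and 9.31 on the pool arrays, a difference of 0.09 (adjusted p = 0.536). Rpt5 was the most variable of the standard subunits in the control, at 8.09, 7.98 and 7.71, against 7.94, 8.06 and 7.90 in the pool. Its difference of 0.04 had a standard error of 0.0986, the highest of the 26 (adjusted p = 0.902). Rpt3 read 9.90, 9.97 and 9.97 against 9.93, 10.00 and 9.84, a difference of -0.02 (adjusted p = 0.909). Rpt4 stood at 0.005, and its 3 control arrays differed by an SD of only 0.008.

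Of the base subunits without ATPase activity, the scaffold subunits Rpn1 and Rpn2 were nearly level. Rpn1, which also docks shuttle factors that bring in substrates, read 9.41, 9.35 and 9.43 against 9.48, 9.31 and 9.43 (difference 0.01, adjusted p = 0.967). Rpn2 read 8.11, 8.01 and 8.02 against 8.09, 7.97 and 8.09 (difference 0.004, adjusted p = 0.986). The ubiquitin receptor Rpn13 had the lowest mean difference of the cap. It read 5.78, 5.77 and 5.67 on the control arrays and 5.70, 5.62 and 5.53 on the pool arrays. The highest pool array lay above the lowest control array, and the difference of -0.12 had an interval from -0.27 to 0.02 (adjusted p = 0.417).

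The lid was the most uniform part of the particle. Its 7 measured genes lay between -0.03 and 0.08, with a median of 0.03, and in none were the groups separate. Rpn11, the ubiquitin-removing enzyme, read 7.88, 7.91 and 7.86 on the control arrays and 7.89, 7.86 and 7.81 on the pool arrays (difference -0.03, interval -0.14 to 0.09, adjusted p = 0.864). Rpn6, which clamps the lid to the core, read 8.75, 8.64 and 8.88 against 8.86, 8.78 and 8.87 and had the highest difference of the lid, 0.08 (adjusted p = 0.683). Rpn3 read 7.24, 7.18 and 7.30 against 7.30, 7.27 and 7.30 (difference 0.05, adjusted p = 0.745). Rpn12 read 8.49, 8.61 and 8.36 against 8.57, 8.54 and 8.48 (difference 0.05, adjusted p = 0.828). In both genes the pool arrays sat inside or at the edge of the control range. Rpn5 stood at 0.03 and Rpn7 and Rpn8 each at 0.01.

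**Figure D2:**
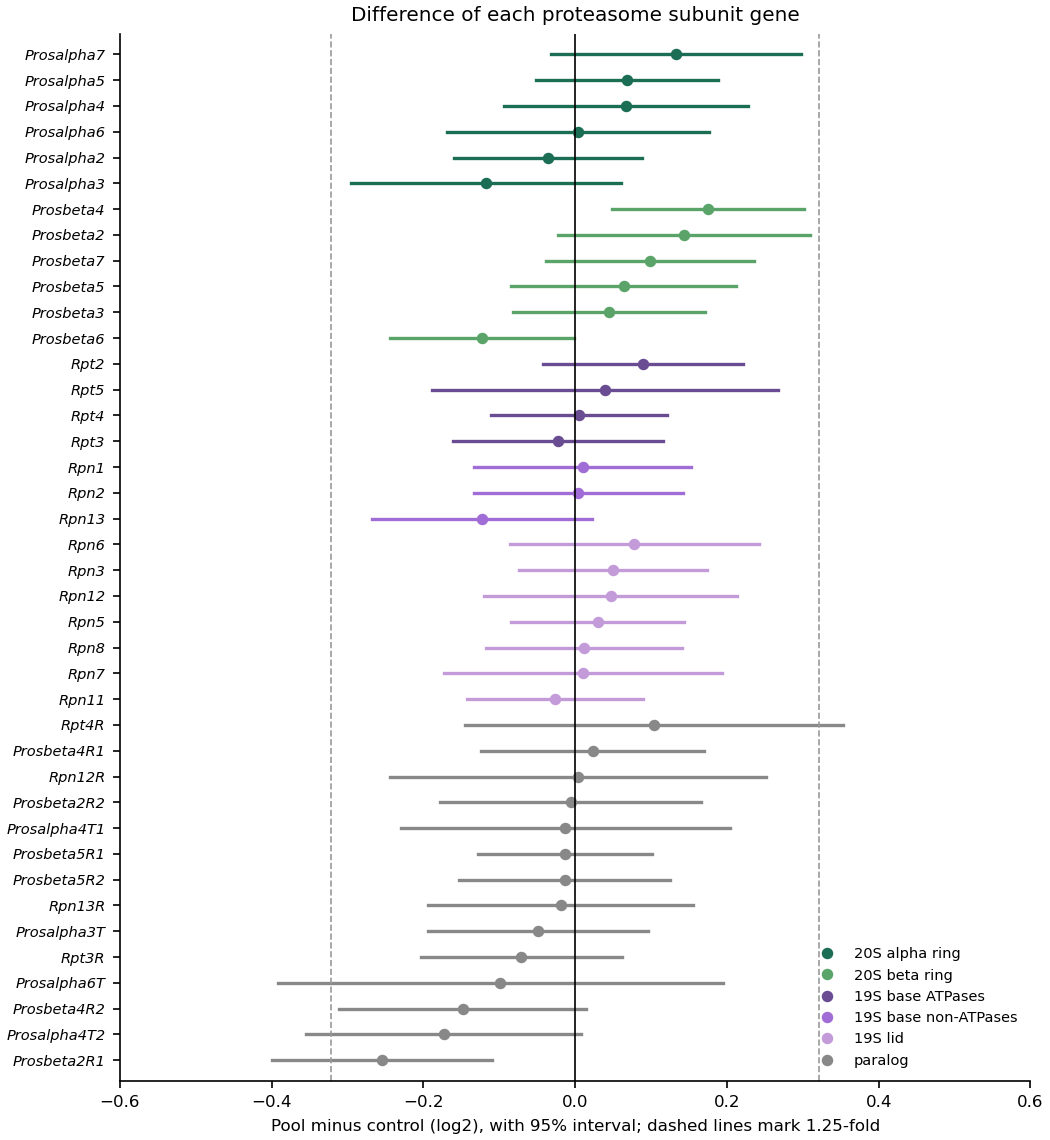
Pool minus control difference on the log2 scale (points) with its 95% interval (lines) for the 40 members, coloured by their place in the particle and sorted within it. The intervals of all 26 standard subunits end inside the dashed lines at 1.25-fold, and those of 4 paralogs cross one of them.

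Core and cap were set side by side. Among the 12 measured core genes 4 had groups that did not overlap (Prosalpha5, Prosbeta4 and Prosbeta7 upward, Prosbeta6 downward), and among the 14 cap genes 0 did, while over all rows it was 21.5%, 11.4% upward and 10.0% downward. Outside the 25% of rows with the lowest mean, where all these core and cap genes lay, the share was 24.8%. The median difference was 0.07 in the core and 0.01 in the cap. The difference between core and cap was not tested.

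The mean of the pool was higher in 20 of 26 standard subunits and lower in 6, against 49.8% and 50.2% of all rows. Outside the 25% of rows with the lowest mean, where all 26 lay, 51.9% of rows were higher and 48.1% lower. The 26 genes had a median difference of 0.0345, and their median on single arrays varied with an SD of 0.0252 between replicates. The lean was not tested. Centring each array on its own median shifts every row alike and left 13 of the 26 higher, with a median of 0.002, and 37.3% of all rows higher, with a median of -0.0331. Quantile normalization left 16 of the 26 higher, against 48.9% of all rows. Without control replicate 3, and without pool replicate 1 or pool replicate 2, 15, 16 and 16 were higher. Array by array, the core genes' median deviation from their mean over all 6 arrays was -0.004, -0.01 and -0.04 in the control and 0.07, 0.02 and -0.01 in the pool. The cap genes gave 0.004, 0.02 and -0.01 against 0.03, 0.009 and -0.02. In both parts pool replicate 1 was the highest array. Pool replicate 3 lay within the control range in the core and below it in the cap.

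**Figure D3:**
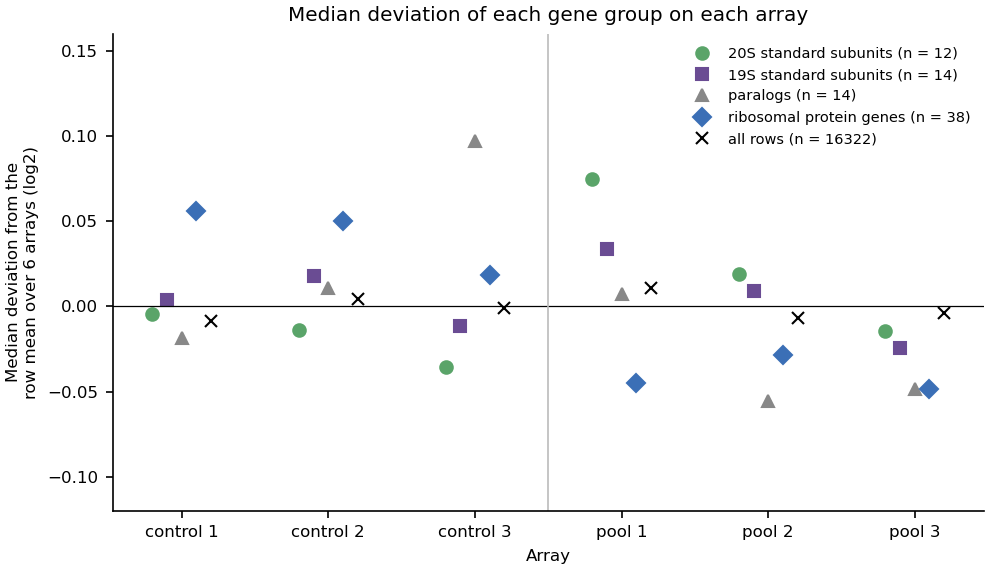
Median deviation from the row mean over 6 arrays, on the log2 scale (vertical axis), for each gene group on each array (horizontal axis). Pool and control arrays overlap for the core subunits and for the cap subunits, while the ribosomal protein genes sit above 0 on the control arrays and below 0 on the pool arrays.

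Ribosomal protein genes, which encode another large particle of many subunits, were read in the same way. The set was the 38 genes that had a row with 1 symbol, starting with RpL or RpS and a digit. Of these 33 had a lower pool mean, against 50.2% of all rows. Their median was -0.10, and 0 passed the test, against 2.90% of all rows. All pool arrays lay below all control arrays in 16 of the 38 and above them in 0, against 10.0% and 11.4% of all rows. The 38 include genes with a paralog-like symbol, such as RpL22-like, and 3 lay among the 25% of rows with the lowest mean. On the control arrays their median deviation was 0.06, 0.05 and 0.02, and on the pool arrays -0.04, -0.03 and -0.05, so the groups did not overlap, unlike those of the proteasome genes. Whether the shifts of the 2 gene groups differ was not tested.

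Some paralogs replace standard subunits in particular tissues, and several are known from the fly testis, where the male germ line builds its own form of the proteasome. The class here was set by the suffix of the symbol alone. In these heads the paralogs were dim. Of the 14, 11 lay among the 25% of rows with the lowest mean, and no array value exceeded 4.57, while 0 of the 26 standard subunits lay there. Brightness differs between probes, so this places the rows near the lower end of the array scale and does not compare amounts of transcript. Of 14 male germ-line genes 11, such as Mst87F, also lay among those 25% of rows. The other 3 were bam, twe and bol, at control means of 4.19, 4.64 and 10.43. The cut of 4.23 applies to the mean over all 6 arrays, and bam, with a pool mean of 4.30, lay close to it.

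Prosbeta2R1, a paralog of Prosbeta2, was the member nearest to a call. Its control arrays read 3.91, 3.89 and 4.04 and its pool arrays 3.73, 3.72 and 3.63, so that the groups did not overlap. The difference of -0.25 had an interval from -0.40 to -0.11 (unadjusted p = 0.00379, adjusted p = 0.0884). It was lower in each of the alternatives that kept its row and passed in none, with adjusted p from 0.0502 to 0.252. Prosalpha4T2 read 4.25, 4.46 and 4.27 against 4.05, 4.17 and 4.25 (difference -0.17, adjusted p = 0.362). Prosbeta4R2 read 4.05, 4.13 and 4.13 against 4.03, 3.82 and 4.01 (difference -0.15, adjusted p = 0.384). In both the pool arrays lay below the control arrays by a narrow margin. The other 11 paralogs had overlapping groups and differences from -0.10 (Prosalpha6T) to 0.10 (Rpt4R). Groups were thus separate in 3 of 14 paralogs, all with lower pool arrays. Over all rows they were separate in 21.5%, 10.0% downward, and among the dimmest 25% of rows in 11.6%. As a class 11 of 14 were lower in the pool mean, with a median of -0.02, while among those dimmest 25% of rows as a whole 56.7% were lower. The paralogs' median deviation was highest on control replicate 3, at 0.10, against -0.02 and 0.01 on the other control arrays.

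**Figure D4:**
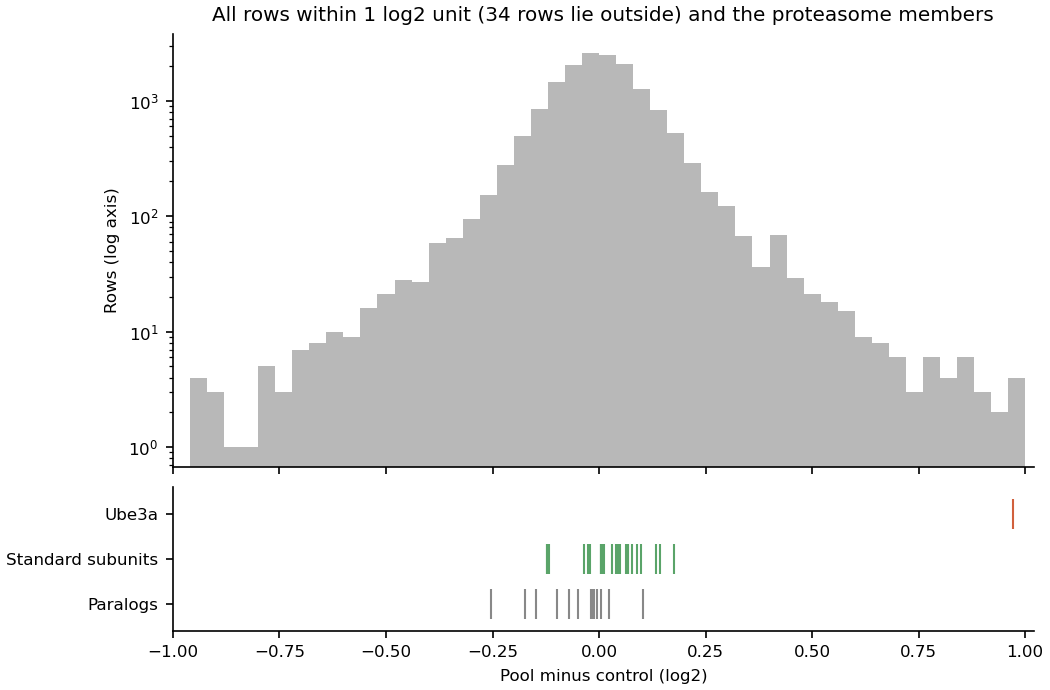
Number of array rows (upper panel, log axis) by pool minus control difference on the log2 scale, with the 34 rows beyond 1 unit not drawn, above ticks for each standard subunit, each paralog and Ube3a. The proteasome genes fall in the middle of the distribution, between -0.25 and 0.17, and Ube3a stands at 0.97.

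The genes that build, steer and feed the proteasome were read from the same fit. Of 8 measured assembly factors, activators and bound regulators 0 were called, and their median difference was -0.02. Pomp, the chaperone that matures the core, read 7.70 ± 0.05 on control arrays and 7.82 ± 0.08 on pool arrays (SD, n = 3 per group), a difference of 0.12 (adjusted p = 0.411). REG, the fly activator of the PA28 gamma type, stood at -0.08 (adjusted p = 0.559). Usp14 and Uch-L5, the deubiquitinases that bind the cap beside Rpn11, stood at 0.02 and -0.02, as near to 0 as Rpn11 itself. PI31, a proteasome-binding regulator, stood at 0.0006, and Sem1, the smallest subunit of the lid under a name outside the rule, at -0.02.

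Of 6 shuttle factors and segregase genes 0 were called. The shuttle genes Rad23 and rngo stood at 0.009 and 0.02. TER94, the ATPase that pulls tagged proteins out of complexes, stood at 0.07 (adjusted p = 0.597) and its cofactor p47 at -0.13 (adjusted p = 0.583). In the 4 genes around Cnc, the factor that raises proteasome genes under stress, 0 were called. The gene cnc itself stood at 0.04 (adjusted p = 0.827). Its partner maf-S stood at 0.15 (adjusted p = 0.241) and its inhibitor Keap1 at 0.14 (adjusted p = 0.484). Transcript levels do not show the activity of Cnc, which is set largely at the protein level.

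Ubiquitin itself and the enzymes ahead of the ligases gave 0 calls among 11 measured genes, with a median of 0.04. This list held 18 genes, and 7 were not analysed, among them the activating enzyme Uba1, eff, Ubc4 and Ubc10. The polyubiquitin gene Ubi-p5E stood at 0.08, with Ubi-p63E also at 0.08. The other ubiquitin genes of the list went the other way, RpL40 at -0.08 and RpS27A at -0.05. Both are also counted among the 38 ribosomal protein genes above, which had a median of -0.10. Uev1A and ben, the partners that build ubiquitin chains of a signalling type, stood at 0.17 (adjusted p = 0.143) and 0.14 (adjusted p = 0.285). Uev1A passed under 1 alternative, limma's trend and robust setting (adjusted p = 0.0277). Of 9 HECT ligase genes Ube3a alone was called, and HERC2, which in mammals binds UBE3A, stood at -0.18 (adjusted p = 0.203).

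The COP9 signalosome shares its architecture with the lid, and autophagy is the other large route of protein removal. Neither list had a called gene, of 9 and 22 measured, with medians of 0.03 and 0.01. CSN8, a signalosome subunit, was the nearest, with a control mean of 5.57 ± 0.10 and a pool mean of 5.87 ± 0.04 (SD, n = 3 per group). Its difference of 0.30 missed the threshold (adjusted p = 0.0515) and passed it in 3 of 13 refits. The subunit alien went the other way, at -0.16 (adjusted p = 0.205). In autophagy the highest were Atg6, at 0.17 (adjusted p = 0.321), Vps15, at 0.17 (adjusted p = 0.344), and Atg18b, at 0.16 (adjusted p = 0.283), while the receptor gene ref(2)P, whose protein builds up when degradation is blocked, stood at 0.04 (adjusted p = 0.769).

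**Figure D5:**
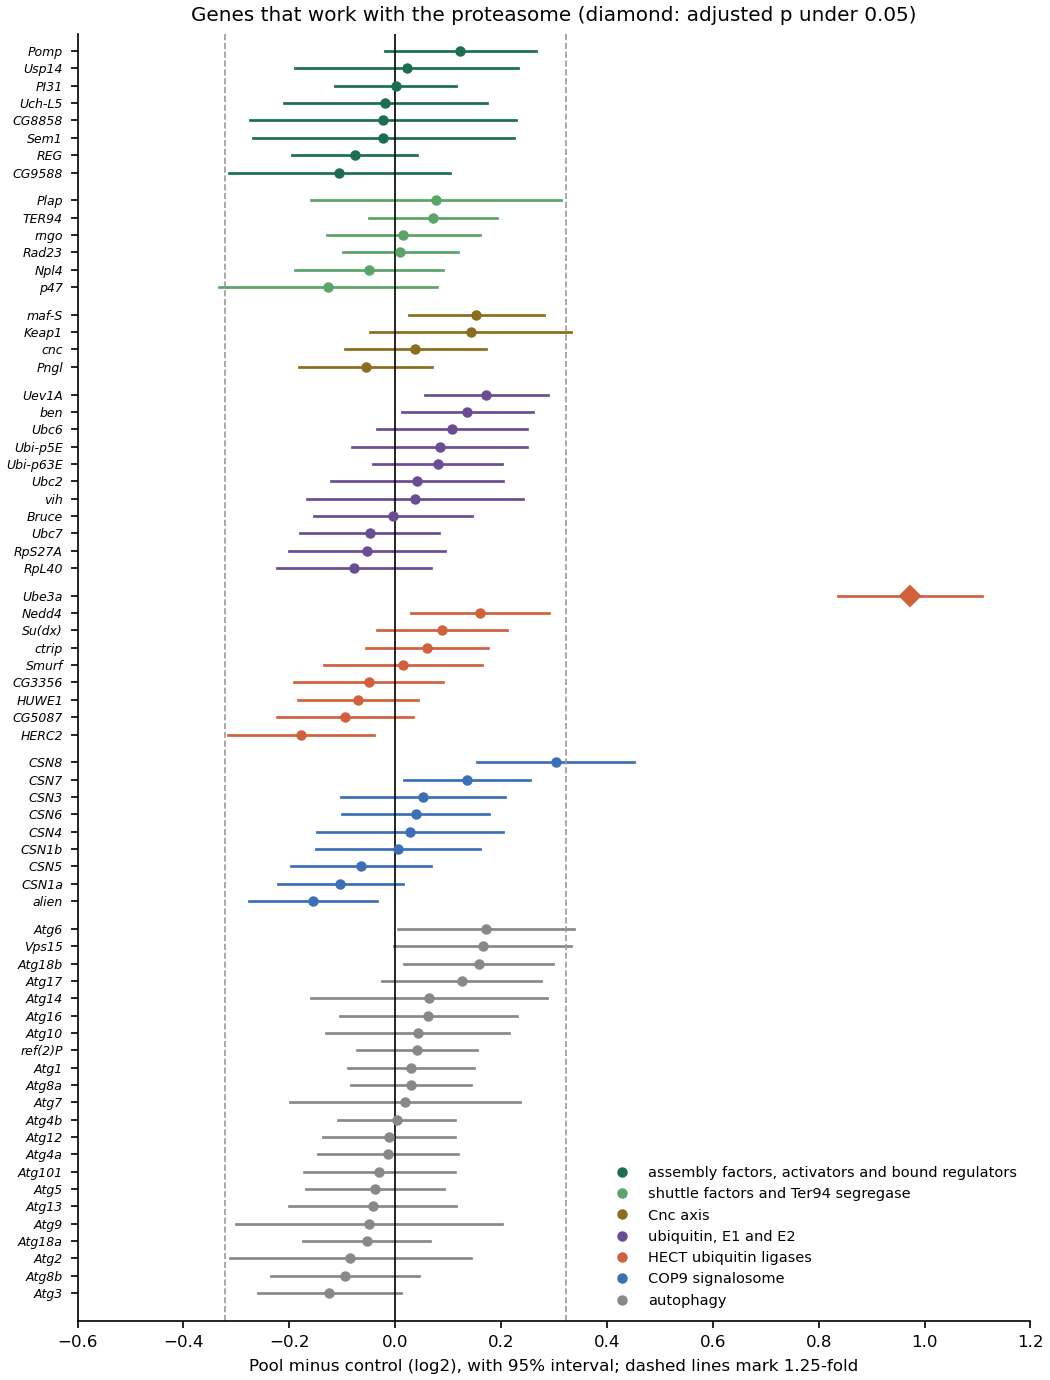
Pool minus control difference on the log2 scale (points) with its 95% interval (lines) for 69 genes of 7 lists around the proteasome, 1 colour per list. Ube3a is the 1 called gene (diamond) at 0.97, and CSN8 at 0.30 is the next highest.

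Marker genes show what else moved between these RNA samples, in which 2.90% of all rows were called. Of 8 measured glial markers 3 had a higher and 5 a lower pool mean. The 5 include nrv2, at -0.07, which is itself a target of RNA interference in the pool, and Gs2, at -0.003. The 1 called was wrapper, of the glia that enwrap neuronal cell bodies and axons, at -0.47 (adjusted p = 0.00299), while moody, of the surface glia, stood at 0.20 and repo at -0.18. Neuronal markers gave 0 calls of 5, with 4 higher in mean, and photoreceptor markers 1 of 6, chp at 0.29, with all 6 higher in mean. Muscle markers gave 4 of 6, led by Act88F at 1.96. Fat body markers gave 1 of 6, Lsp2 at 1.33, while the other 5 had lower pool means without a call, from -0.07 (apolpp) to -0.19 (Yp3). Hemocyte markers gave 2 of 5, PPO1 and PPO2, both at -0.36, with NimC1 at 0.18. In whole-head RNA fewer cells of a type and less RNA per cell cannot be told apart. The part of these shifts in the proteasome values was not tested. Any pair of arrays correlated across rows at 0.9952 or more, and centring each array on its median turned the split of all called rows from 270 higher and 203 lower to 219 higher and 249 lower.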

How the data were processed

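The authors' deposited values are 1 log2 number per row and array; the log2 scale was inferred from their range of 3.20 to 14.02. Per the submitters' processing notes the arrays went through Affymetrix Expression Console. The sources used here give neither its version or algorithm nor a genome build. Of 16322 rows 13441 carried 1 gene symbol, 555 several and 2326 none. Array data have no read depth, so the number of arrays limits the precision; the median standard error of the 40 members was 0.0627.

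Values were used as deposited. Pool minus control was fitted in limma 3.58.1 (R 4.3.3; lmFit, eBayes, two-sided) over all rows, with Benjamini-Hochberg adjustment and a threshold of 0.05; the steps were tested on simulated data. Groups came from the labels. Members and lists were chosen with earlier results of these data known, so no list was tested as a set. Array values are given for any called member, the 3 smallest p in each class, and the catalytic, ubiquitin-receptor and deubiquitinating subunits; in other lists, called genes or the 2 smallest p. Further genes of those lists (such as cnc, Rad23, Usp14 and ref(2)P) and the remaining members were named after their values were seen. No sequence is shown, and the planned promoter motif search was not run, because no sequence table was used here. Deviations of same-numbered arrays from their group means correlated at -0.014, -0.005 and 0.09, so the replicate numbers were not treated as pairs. Plots were made in matplotlib 3.10.9 (Python 3.11.15).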

Additional observations from a re-analysis of the deposited data

How the results depend on the processing

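In each of the 13 refits 0 members passed, with a lowest adjusted p of a member from 0.0502 to 0.252. The refit with the dimmest 25% of rows dropped kept 29 of the 40 members and did not hold Prosbeta2R1. At an adjusted p under 0.10 in the main fit 1 member passed (Prosbeta2R1), where all-row calls rose from 473 to 785. In these refits 57 of 509 member values changed sign, in 18 genes, none of them called. All-row calls were 312 with the replicate number as a block, which changed no member's call, and 861 with trend and robust settings; on leaving out single arrays they were 218 to 312. The count of members with a lower pool mean was 17, and became 26 with arrays centred on their median, 8 of 29 with the dimmest 25% of rows dropped and 6 of 26 without the paralogs. For the standard subunits it was 6, and became 10 with quantile normalization, 13 with arrays centred and 7 to 11 with 1 array left out. The median over members was 0.0044, and became -0.0281 with arrays centred and 0.0345 without paralogs; that of the standard subunits fell from 0.0345 to 0.002 with arrays centred. Centring shifts every row alike (median of all rows -0.0331); the cause of the other changes was not tested. Averaging a gene's rows changed nothing, since each member has 1 row. Ube3a passed in all 13 refits, with differences from 0.93 to 1.00. Among related genes CSN8 passed in 3 refits (adjusted p from 0.0411 to 0.171 over all) and Uev1A in 1. With 3 arrays per group, real changes could go undetected, and the 1.25-fold bound of the intervals is not a limit of detection. In the main fit 1 unnamed row with a difference of 0.5252, outside that bound, was not called (limma adjusted p = 0.3021). The intervals hold for the pool mean, so a larger change in only 1 of the 7 lines could go undetected too. Dixon's outlier test was not applied, because it needs groups of at least 4.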
